A study of Mus musculus with 2 samples.

Results

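Thy1 and 4 members of the Ly6/uPAR family, Ly6e, Ly6h, Lynx1 and Lypd1, were read out of long-read RNA sequencing of mouse hippocampus. Of the annotated genes of both count tables, 18497 had a read in either library. The 5 genes were chosen from them by symbol, with earlier results of these data known. They took 782 reads in 48 transcript models in replicate 1 and 680 reads in 49 models in replicate 2. The tissue came from 2-month-old female B6CASTF1/J mice, the first-generation hybrid of C57BL/6J and CAST/EiJ, and the labels call it a layer of the hippocampus. Both libraries belong to 1 group, were started from 2 µg of total RNA and are numbered as biological replicates 1 and 2. The labels do not say plainly that they came from separate animals, nor whether animals were pooled. Each p-value compares only these libraries and sets their difference against counting error, with no measure of the spread between animals. A difference may therefore be technical. Replicate 1 held 836240 reads and replicate 2 held 752291, of which 9644 and 6799 were on spike-ins. No treatment, genotype or other tissue was available for comparison, and the 2 parental alleles are summed in the counts.

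Ly6/uPAR proteins are small cell-surface proteins built on a three-finger fold, in which loops extend from a core held by disulfide bonds between conserved cysteines. Most are attached to the outer membrane by a glycosylphosphatidylinositol (GPI) lipid anchor. Several brain members bind nicotinic acetylcholine receptors, the cation channels opened by acetylcholine: Lynx1 lowers their sensitivity to the transmitter, Ly6h limits their transport to the surface, and Lypd1, also called Lynx2, dampens their response. Ly6e is found on many cell types and is known as an interferon-stimulated gene and as the receptor of the placental protein syncytin-A. Thy1 is also GPI-anchored but belongs to the immunoglobulin superfamily, and it is a classical surface antigen of mouse T cells and of mature neurons.

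The shared fold can be read in the coding sequence of the last coding exon, which is shown because the unannotated splicing of Ly6e described further on removes its coding bases. Each sequence is from the GENCODE M21 transcripts on mm10, from 5′ to 3′ on the coding strand without the stop codon, with in-frame cysteine codons in capitals. The Ly6e exon (chr15:74958493-74958710, plus strand, 218 bases) came from Ly6e-201, the Ly6h exon (chr15:75565109-75565341, minus strand, 233 bases) from Ly6h-204, the Lynx1 exon (chr15:74751234-74751427, minus strand, 194 bases) from Lynx1-201, the Lypd1 exon (chr1:125873339-125873571, minus strand, 233 bases) from Lypd1-202, and the Thy1 exon (chr9:44047339-44047448, plus strand, 110 bases) from Thy1-201.
Ly6e: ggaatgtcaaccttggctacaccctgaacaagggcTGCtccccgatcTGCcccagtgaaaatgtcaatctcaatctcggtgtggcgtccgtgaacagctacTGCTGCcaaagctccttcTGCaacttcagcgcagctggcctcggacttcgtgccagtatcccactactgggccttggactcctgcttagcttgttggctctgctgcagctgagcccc
Ly6h: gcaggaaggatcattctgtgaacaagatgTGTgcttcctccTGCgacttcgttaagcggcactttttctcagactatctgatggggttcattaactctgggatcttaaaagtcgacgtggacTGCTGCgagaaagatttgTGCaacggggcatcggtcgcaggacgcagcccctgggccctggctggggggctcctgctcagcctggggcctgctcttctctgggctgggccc
Lynx1: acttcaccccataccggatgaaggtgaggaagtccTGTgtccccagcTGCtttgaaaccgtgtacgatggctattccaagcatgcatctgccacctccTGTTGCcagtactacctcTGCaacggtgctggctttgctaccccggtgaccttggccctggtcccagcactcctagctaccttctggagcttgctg
Lypd1: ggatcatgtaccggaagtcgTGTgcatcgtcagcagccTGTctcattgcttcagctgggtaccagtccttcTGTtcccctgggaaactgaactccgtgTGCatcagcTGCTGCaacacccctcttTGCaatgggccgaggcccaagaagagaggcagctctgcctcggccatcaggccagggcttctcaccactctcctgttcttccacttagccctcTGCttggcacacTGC
Thy1: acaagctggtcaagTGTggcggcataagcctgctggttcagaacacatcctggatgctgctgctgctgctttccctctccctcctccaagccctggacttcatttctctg

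In the 4 Ly6/uPAR genes this exon held 5 cysteine codons in Ly6e, Ly6h and Lynx1 and 9 in Lypd1, and in Thy1 it held 1. Each of the 4 carried, in frame, a pair of adjacent cysteine codons, 4 codons of any kind, and a further cysteine codon followed by an asparagine codon. The Ly6e match reads TGCTGCcaaagctccttcTGCAAC, with these codons in capitals. Thy1 had no match anywhere in its reading frame. Of 21562 mouse coding genes whose annotated reading frames were searched on the coding strand, 63 held the motif (0.292%), and 33 of these were among 39 other Ly6/uPAR genes. Over the whole reading frame, cysteine codons made up 10 of 136 codons in Ly6e, 12 of 160 in Ly6h-204, 10 of 116 in Lynx1, 15 of 141 in Lypd1-202 and 4 of 162 in Thy1. The median over coding transcripts was 2.07 cysteine codons per 100.

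Counted over all their reads, the 5 genes lay among the more abundant of the tissue. Levels are given as reads per 1000000 reads not on spike-ins (CPM). Ly6h stood at 318 CPM in replicate 1 and 286 CPM in replicate 2, a mean of 302 ± 22.9 (SD, n = 2). Ly6e stood at 191 and 205 CPM (198 ± 9.96, n = 2). Lynx1 stood at 180 and 160 CPM (170 ± 14.6, n = 2). Thy1 stood at 154 and 148 CPM (151 ± 4.31, n = 2), and Lypd1 at 103 and 114 CPM (108 ± 7.91, n = 2). Of the Lynx1 reads, 93.0% were of the Genomic class defined below, and without Genomic models Lynx1 stood at 13.2 CPM, the lowest of the 5. Over full-splice reads alone, also defined below, Lynx1 stood at 15.3 CPM and Thy1 at 77.8 CPM. The order of the levels in CPM over all reads was the same in both libraries, and the values of neighbouring genes did not overlap. The exact 95% Clopper-Pearson intervals of single libraries nevertheless overlapped between Ly6e and Lynx1 and between Lynx1 and Thy1: in replicate 1 they ran from 163 to 223 CPM for Ly6e, from 152 to 212 for Lynx1 and from 128 to 183 for Thy1. In neither library did these intervals separate Ly6e from Lynx1 or Lynx1 from Thy1, whereas the Ly6h interval lay above that of Ly6e in both. Overlapping intervals are not a test, and no test between genes was run. The Lypd1 interval lay below that of Thy1 in replicate 1 (82.1 to 127 CPM) but overlapped it in replicate 2, where it ran from 91.1 to 141 CPM against 121 to 178 CPM. These intervals cover counting error only. Among the genes with a read, Ly6h ranked 421, Ly6e 782, Lynx1 977, Thy1 1160 and Lypd1 1765 by mean CPM, against a median of 11.6 CPM over these genes.

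**Figure D1:**
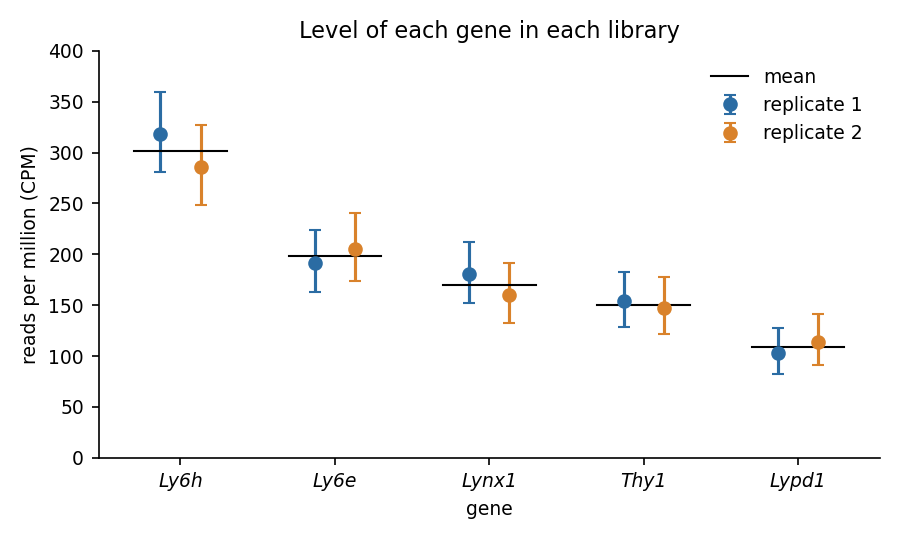
Level of each gene in reads per 1000000 (vertical axis) in replicate 1 and replicate 2, with exact 95% Clopper-Pearson intervals as bars and the mean of both libraries as a black line. Ly6h is the highest at 302 CPM and Lypd1 the lowest at 108 CPM, and the intervals of Ly6e, Lynx1 and Thy1 overlap; all reads are counted, of which 93.0% are Genomic in Lynx1.

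A long read stands for a cDNA copy whatever its length. Long transcripts may nevertheless be read less often, which was not tested here. The levels were therefore also divided by the length of the annotated transcript with the most reads. In CPM per kilobase, Ly6h (Ly6h-204, 1336 bases) stood at 226 ± 17.2 (SD, n = 2). Ly6e (Ly6e-201, 2281 bases) and Thy1 (Thy1-201, 1735 bases) could not be told apart, at 86.9 ± 4.37 and 86.8 ± 2.48 CPM per kilobase. Lynx1 (Lynx1-201, 4023 bases) stood at 42.2 ± 3.63 and Lypd1 (Lypd1-202, 6464 bases) at 16.8 ± 1.22 CPM per kilobase. On this scale Lynx1 lay below Thy1, the reverse of their order in CPM. The choice of this length was made after seeing the data. Divided by the mean length of the models read, Lynx1 was instead the highest, at 353 CPM per kilobase against 111 for Thy1, with a model of 1 base holding most of its reads in replicate 1.

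The levels of the 5 members were within counting error of each other in the 2 libraries. Across 9062 genes with 20 or more reads together, 28 (0.309%) were called different by an exact binomial test (p under 0.05 after Benjamini-Hochberg adjustment, fold of 2 or more). None of the 5 members was among them, and 0 had an unadjusted p under 0.05. The ratio of replicate 1 to replicate 2 ran from 0.902 for Lypd1 (95% interval 0.66 to 1.23) to 1.13 for Lynx1 (0.881 to 1.45). The smallest adjusted p of this exact test was 0.921, for Ly6h. Once reads of the Genomic class, defined below, were left out, Thy1 stood at 73.3 CPM in replicate 1 and 162 CPM in replicate 2. The adjusted p was then 0.000204 by the same exact test. This setting drops 72 last-exon reads of Thy1 in replicate 1. In replicate 2, 74 reads of that exon are of class ISM, also defined below, and are kept. Over full-splice reads alone, the adjusted p for Thy1 was 0.782 by the same exact test.

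The tissue label was checked against markers. All 8 markers of hippocampal neurons had reads in both libraries, with summed levels of 4183 and 4166 CPM, led by Hpca, a neuronal calcium sensor, at 2191 CPM. For Thy1, an antigen of T cells, markers of T cells were looked at, and other possible sources were not tested. Of 10 T cell markers, 8 had no read in either library, among them Cd3d, Cd3e, Cd3g, Cd4 and Cd8a, and the list summed to 7.26 and 6.71 CPM against 154 and 148 CPM for Thy1. The only markers with a read were Lck, at 5.71 ± 0.483 CPM (n = 2), and Trac, with 1 read in each library. A count of 0 allows up to 3.63 CPM in replicate 1 and 4.02 CPM in replicate 2. For Ly6e, which many cell types express, 8 endothelial markers summed to 342 and 263 CPM, led by Cldn5, a tight junction protein, at 231 and 169 CPM, and 4 microglial markers summed to 188 and 203 CPM. Markers of astrocytes summed to 2792 and 2675 CPM, of oligodendrocytes to 2043 and 2282 CPM, of choroid plexus to 339 and 185 CPM and of blood to 256 and 451 CPM. The choroid plexus sum was nearly all Ttr, at 328 and 176 CPM. Of the other markers on that list, Kl had 8 and 6 reads, Folr1 had 1 read in each library and Kcne2 had none. Of the 5 blood markers, 4 had enough reads for the test between the libraries. Of these 1 was called different, against 0.309% of all genes tested. The part of these other cells in the members' levels was not tested. In such bulk tissue, fewer cells of a type and less RNA per cell cannot be told apart.

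What the reads of the 5 genes looked like differed far more than their number. TALON, the program named in the deposited structures, puts each transcript model of a gene in a class. Known models match an annotated transcript. NIC models combine annotated splice sites in a way the annotation lacks, NNC models use at least 1 unannotated splice site, ISM models match only part of an annotated transcript, and Genomic models overlap the gene but fit none of these. The line between NIC and NNC is not exact in the labels: Ly6e models with the same unannotated intron carry both. Known, NIC and NNC reads together are called full-splice reads here. Over all annotated genes, 77.4% and 76.9% of reads were full-splice, and 10.5% and 10.3% were Genomic, in replicates 1 and 2.

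Lynx1, the modulator of nicotinic receptors, was read almost only as single-exon fragments. Of its 149 reads in replicate 1, 137 were Genomic (91.9%, 95% interval 86.4 to 95.8%), and of its 119 reads in replicate 2, 112 were (94.1%, 88.3 to 97.6%). This mean share of 93.0% was exceeded or equalled by 51 of 6038 genes with at least 20 reads in each library, including Lynx1 itself, and the median gene had 3.72%. All these reads sat in 1 model per library, at the far 3′ end of the gene. The model runs from chr15:74747852-74748740 in replicate 2 and is listed with a length of 1 base, at 74747852, in replicate 1, so its 5′ end is not informative. Both positions lie in the last exon of Lynx1-201 (chr15:74747852-74751427, 3576 bases), beyond the coding part, in a 3′ UTR of 3382 bases. Full-splice reads numbered 11 and 5, all of them Lynx1-201. Among the 490 other genes with at least 200 reads in each library, those with the class shares nearest to Lynx1 were Ddn, encoding the postsynaptic protein dendrin (94.7% Genomic), Gabarapl1, encoding an autophagy protein, and Glp2r, a peptide hormone receptor gene (99.1% Genomic); nearness was the Euclidean distance over the 5 class shares, averaged over both libraries.

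Thy1 also came mostly as fragments, and its class depended on the library. In replicate 1, 72 of 127 reads were Genomic and 4 were ISM. In replicate 2, 0 of 110 were Genomic and 80 were ISM. Nearly all of these belong to a single-exon model that ends at the same base, chr9:44048579, the end of the annotated last exon. In replicate 1 it starts at 44047380, inside that exon, and holds 72 reads, and in replicate 2 it starts at 44047339, the first base of the exon, and holds 74. The model spans 1200 and 1241 bases. The exon carries the last 110 coding bases and a 3′ UTR of 1131 bases. Counted as single-exon reads of any class, the share was 56.7% (47.6 to 65.5%) in replicate 1 and 68.2% (58.6 to 76.7%) in replicate 2. Full-splice reads made up 40.2% and 27.3%.

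**Figure D2:**
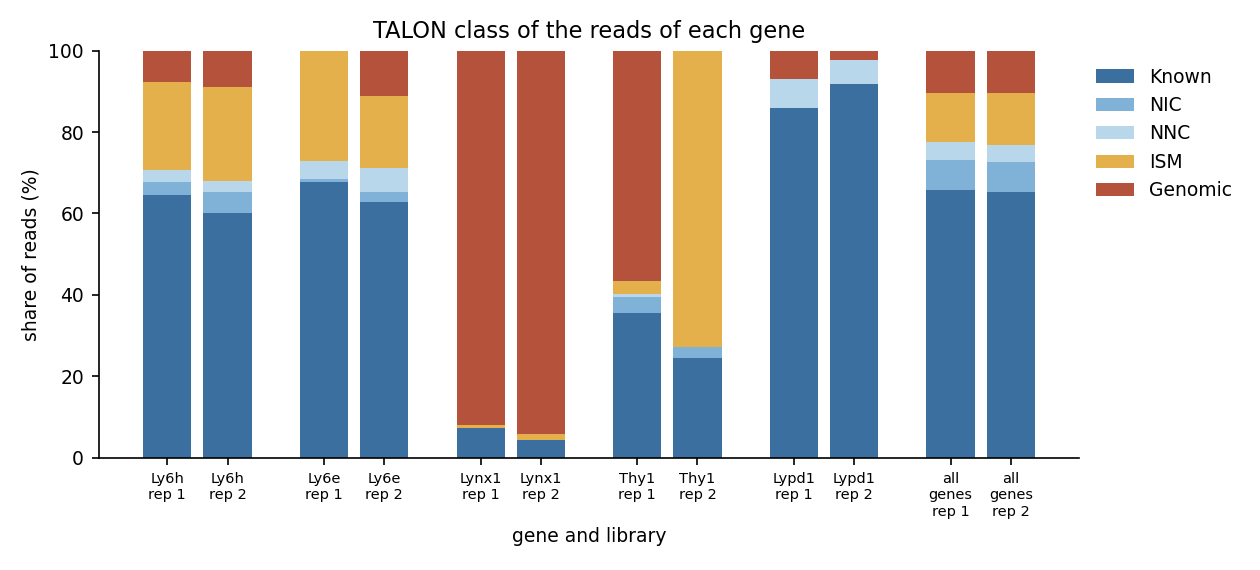
Share of reads in each TALON class (vertical axis, percent) for each gene and, at the right, for all annotated genes, in each library. Known models match an annotated transcript, NIC and NNC models are unannotated combinations or contain unannotated splice sites, ISM models match part of a transcript, and Genomic models fit none of these; Lynx1 is over 90% Genomic in both libraries, and the Thy1 fragments change class between them.

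The Thy1 shift in class passed Fisher's exact test across 6038 genes (Genomic share 56.7% against 0%, adjusted p = 1.47e-23), and so did that of Ly6e (0% of 158 against 11.1% of 153 reads, adjusted p = 0.000147). These were 2 of 5 members, against 4.99% of all genes tested. For the full-splice share, which does not depend on where the line between ISM and Genomic falls, 0 of 5 members passed, against 0.265% of genes; the Thy1 share had an unadjusted p of 0.0403 and an adjusted p of 1 by Fisher's exact test. For the single-exon share 0 of 5 passed, against 0.116% of genes. Beside 2 reads of Ly6e-216 in each library, the single-exon reads of Ly6e were 21 of class ISM in replicate 1 (chr15:74958493-74959903) and 17 of class Genomic in replicate 2 (chr15:74958593-74959331), and both models lie in the last exon. A change of this kind was common: of 658 genes with at least 20 single-exon ISM or Genomic reads in each library, 96 (14.6%) had at least 90% Genomic in one library and at most 10% in the other, and Thy1 was among them. Ly6e fell short of the minimum of 20 reads in replicate 2.

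The other genes had mostly full-splice reads, a class that does not show that a read is full-length. It also includes single-exon Known reads, such as the 2 reads of Ly6e-216 in each library. Lypd1 had 79 full-splice reads of 85 in replicate 1 (92.9%, 85.3 to 97.4%) and 83 of 85 in replicate 2 (97.6%, 91.8 to 99.7%), no ISM read and 6 and 2 Genomic reads, although its leading transcript is the longest of the 5. Ly6e had 72.8% and 71.2% full-splice reads, and Ly6h 70.7% and 68.1%. Of the same 6038 genes, 84.8% had a lower mean full-splice share than Lypd1, 28.9% a lower one than Ly6e, 25.7% than Ly6h, 7.34% than Thy1 and 1.56% than Lynx1. Genomic reads of Ly6h numbered 20 and 19 and sat at the 3′ end of its last exon. By class shares the nearest genes were Pip5k1c, a lipid kinase gene, for both Ly6e and Ly6h, and Lamp1, a lysosomal membrane protein gene, for Lypd1. The nearest to Thy1 was Crtc1, a CREB coactivator gene.

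**Figure D3:**
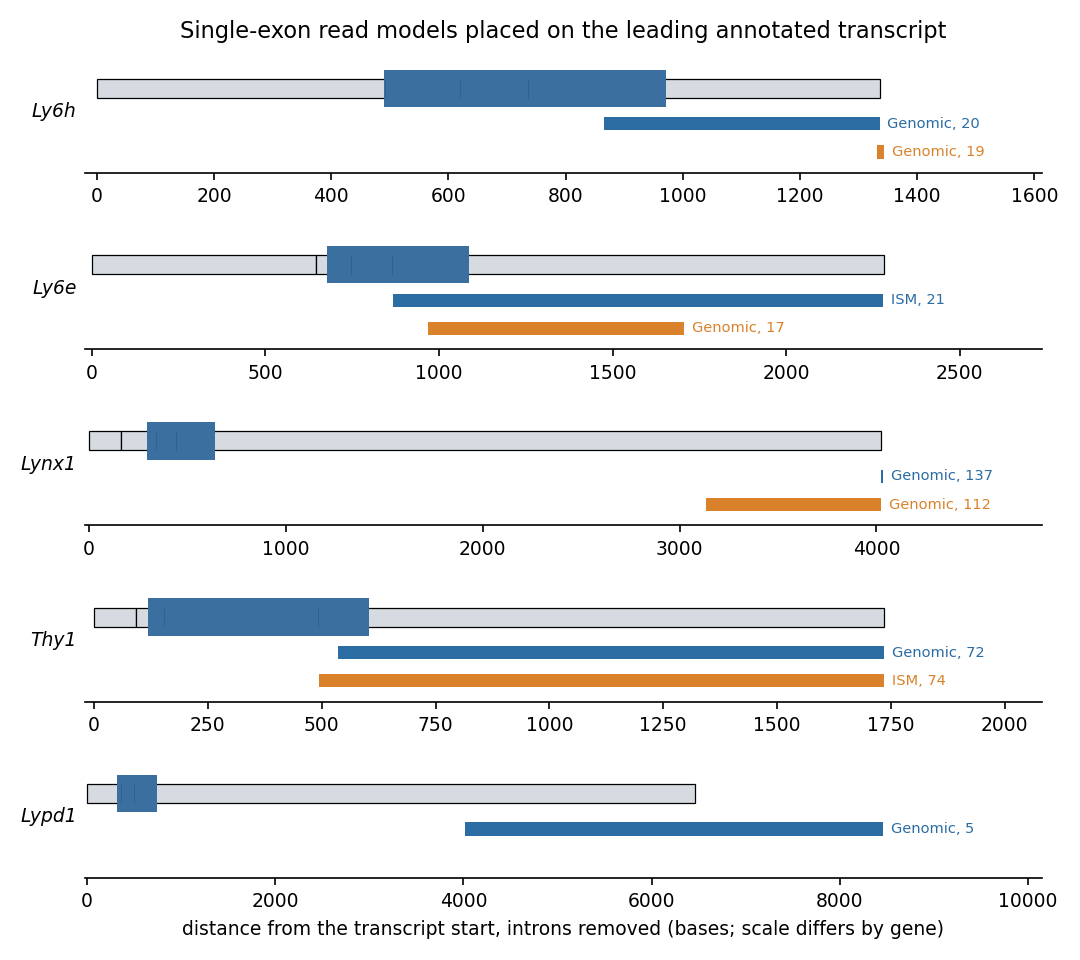
Single-exon models with at least 5 reads, drawn on the leading annotated transcript of each gene with introns removed (horizontal axis, bases from the transcript start; the scale differs by gene). Grey boxes are exons, thick blue boxes coding sequence, and thin bars the models of replicate 1 (blue) and replicate 2 (orange) with class and number of reads; the models lie in the last exon or run past its end, and the Lynx1 model of replicate 1 (1 base) and the Ly6h model of replicate 2 (3 bases) are drawn wider to be visible.

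First exons were compared through the first splice donor, the last base of the first exon, over spliced full-splice reads. Ly6h used several, and its annotated transcripts carry 2 reading frames that differ at the start. The donor at chr15:75566763, of Ly6h-204, took 112 of 186 reads in replicate 1 (60.2%, 52.8 to 67.3%) and 99 of 145 in replicate 2 (68.3%, 60.0 to 75.7%). The donor at 75566592, of Ly6h-201, took 55 (29.6%) and 31 (21.4%). The donors at 75567095, of Ly6h-206, and at 75566714, of Ly6h-202, took 4.30% and 3.76% in replicate 1 and 4.14% each in replicate 2. The leading donor did not pass Fisher's exact test between libraries (adjusted p = 1). Its mean share, 64.2 ± 5.70% (n = 2), was under the 97.6% that the median of 4612 genes gave to its leading first donor, and 6.07% of these genes had a lower share.

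The reading frame of Ly6h-204 opens with 2 coding bases in the first exon and continues through the second exon, so that it adds 21 codons before the start codon of Ly6h-201. The first 93 coding bases of Ly6h-204 (chr15:75566169-75566764, minus strand, GENCODE M21, with an intron removed) are shown with both start codons in capitals, since the leading forms differ in which of them opens the annotated frame.
Ly6h: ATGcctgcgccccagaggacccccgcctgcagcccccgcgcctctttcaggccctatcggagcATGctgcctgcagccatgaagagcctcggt
The annotated frames are 480 bases in Ly6h-204 and Ly6h-206 and 417 bases in Ly6h-201 and Ly6h-202. Reads from the first donor of Ly6h-206 did not all have its next exon. Of these reads, 3 and 0 were Ly6h-206, and 3 and 3 went on through an exon with the Ly6h-201 donor and then the annotated introns of Ly6h-201. In replicate 2, 1 more read took that exon but had an unannotated last intron. The remaining reads followed other unannotated chains. As isoforms, Ly6h-204 had 106 and 91 reads (57.0% and 62.8% of spliced full-splice reads), Ly6h-201 52 and 27 (28.0% and 18.6%) and Ly6h-202 6 and 6. The form with the longer annotated frame thus led in both libraries. Ly6h-205, with a retained intron, had 3 and 4 reads. The longest annotated models, Ly6h-203 and Ly6h-207 with 10 and 11 exons, had no read of class Known, and their region held 2 single-exon reads in each library (chr15:75557569-75558072). Of 19 intron chains seen, 14 were unannotated, and none of these had 5 reads in each library.

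Lypd1 used 1 main first exon. The donor at chr1:125911839, of Lypd1-202, took 67 of 79 reads in replicate 1 (84.8%) and 71 of 83 in replicate 2 (85.5%, 95% interval 76.1 to 92.3%). An unannotated donor at 125911464 took 6 (7.59%) and 5 (6.02%), and the donor at 125913048, of Lypd1-204, took 6 and 3. Lypd1-203 had 0 and 3 reads, Lypd1-205 0 and 1, and Lypd1-201 none. In the annotation, only Lypd1-202 begins its frame in this exon, with 52 coding bases (chr1:125911839-125911890). The other 4 transcripts begin at a start codon 52 codons later, in the exon that ends at 125910391. The first 186 coding bases of Lypd1-202 (chr1:125910395-125911890, minus strand, GENCODE M21, with an intron removed) are shown with both start codons in capitals.
Lypd1: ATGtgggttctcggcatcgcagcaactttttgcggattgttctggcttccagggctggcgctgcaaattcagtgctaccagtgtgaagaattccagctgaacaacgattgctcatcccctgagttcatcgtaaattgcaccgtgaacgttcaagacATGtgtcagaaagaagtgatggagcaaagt
The 52 codons before the second start hold 5 of the 15 cysteine codons of Lypd1-202.

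For Lypd1 the promoter could be placed beside the first exons. RefSeq gives it 3 start sites on GRCm38.p6. They fall at the first bases of Lypd1-202, Lypd1-201 and Lypd1-205. The 250 bases before the start of the leading form, Lypd1-202 (chr1:125912215-125912464, minus strand, RefSeq), are shown with motif matches in capitals.
Lypd1-202: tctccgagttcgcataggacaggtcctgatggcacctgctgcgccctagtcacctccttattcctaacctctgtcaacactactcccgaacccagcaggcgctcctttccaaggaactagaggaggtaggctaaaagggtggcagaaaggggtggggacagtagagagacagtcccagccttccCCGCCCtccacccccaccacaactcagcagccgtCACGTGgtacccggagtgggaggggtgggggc
The motifs searched, on both strands, were the TATA box, spelled TATAAA, the CCAAT box, the GC box, spelled GGGCGG, and an E-box, spelled CACGTG. No match overlaps another in this window. The window held 1 GC box, starting 66 bases before the start site, and 1 E-box, starting 32 bases before it. Of 32851 such windows of all genes, 32.7% held GGGCGG and 6.02% CACGTG. The windows of Lypd1-201 and Lypd1-205 each held 1 GC box and no E-box. Each also held 2 CCAAT matches, which in Lypd1-201 overlap on opposite strands, and 33.8% of all windows held this motif. A TATA box, in 12.4% of all windows, was in none of the 3. The unannotated donor at 125911464 lies in the Lypd1-205 window, 77 bases upstream of that start site, and the 2 bases after it are GT, the usual first bases of an intron. The donor lies 375 bases beyond the Lypd1-202 donor. The first exon of the model that uses it runs from 125912214, the Lypd1-202 start, in replicate 2 (5 reads, 751 bases) and from 125911839, the Lypd1-202 donor, in replicate 1 (6 reads, 376 bases). Whether these reads hold the first coding bases of Lypd1-202 therefore depends on a model end that differs between the libraries.

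Ly6e used 1 first donor and split after it. The donor at chr15:74955717 took 111 of 113 reads in replicate 1 (98.2%) and 106 of 107 in replicate 2 (99.1%). The next exon begins at 74957777 in Ly6e-201 or 3 bases later, at 74957780, in Ly6e-215. The start codon lies further on, so these bases are in the 5′ UTR and both isoforms have the same frame of 408 bases. Ly6e-201 had 51 and 54 reads (45.1% and 50.5%) and Ly6e-215 49 and 39 (43.4% and 36.4%). Over all spliced reads that join either acceptor, the upstream acceptor took 61 of 114 (53.5%, 43.9 to 62.9%) and 63 of 108 (58.3%, 48.5 to 67.7%), and the difference did not pass Fisher's exact test (p = 0.501).

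A minority of Ly6e reads lacked the coding part of the last exon shown above, using a later acceptor in the same exon. These reads leave the annotated donor of the last intron, first intronic base chr15:74958389, and end the intron at 74958910 in place of 74958492. The unannotated intron is 522 bases long, against 104 bases for the annotated intron. It starts with GT and ends with AG, as the annotated intron does. It was used in 7 of 132 reads that leave this donor in replicate 1 (5.30%, 2.16 to 10.6%) and 11 of 130 in replicate 2 (8.46%, 4.30 to 14.6%), which did not differ by Fisher's exact test (p = 0.339). It removes all 218 coding bases of the last exon, 53.4% of the frame, with its 5 cysteine codons. Read on from the start codon, the spliced sequence keeps 63 whole codons and meets a stop after 67 codons, against 136 codons in Ly6e-201. In 6 and 7 of these reads the second exon began at 74957777, and in 1 and 4 at 74957780.

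Thy1 and Lynx1 had little variation in their full-splice reads. The Thy1 donor at chr9:44043476, of Thy1-201, took 48 of 51 reads (94.1%) and 28 of 29 (96.6%). A second annotated first exon, of Thy1-205 with its donor at 44043853, took 3 and 1 reads, joined to the exons of Thy1-201. Thy1-201 was the leading isoform with 45 and 26 reads. All 11 and 5 spliced full-splice reads of Lynx1 used the donor at chr15:74752885, so a minor first exon could not be seen at this depth: 5 of 5 reads has a 95% interval from 47.8 to 100%. Between libraries, 0 of the 4 members with enough reads for a test differed in the leading first donor, against 0.167% of 3592 genes, or in the leading isoform, against 0.201% of 4476 genes. At an unadjusted p under 0.05 the counts were also 0.

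**Figure D4:**
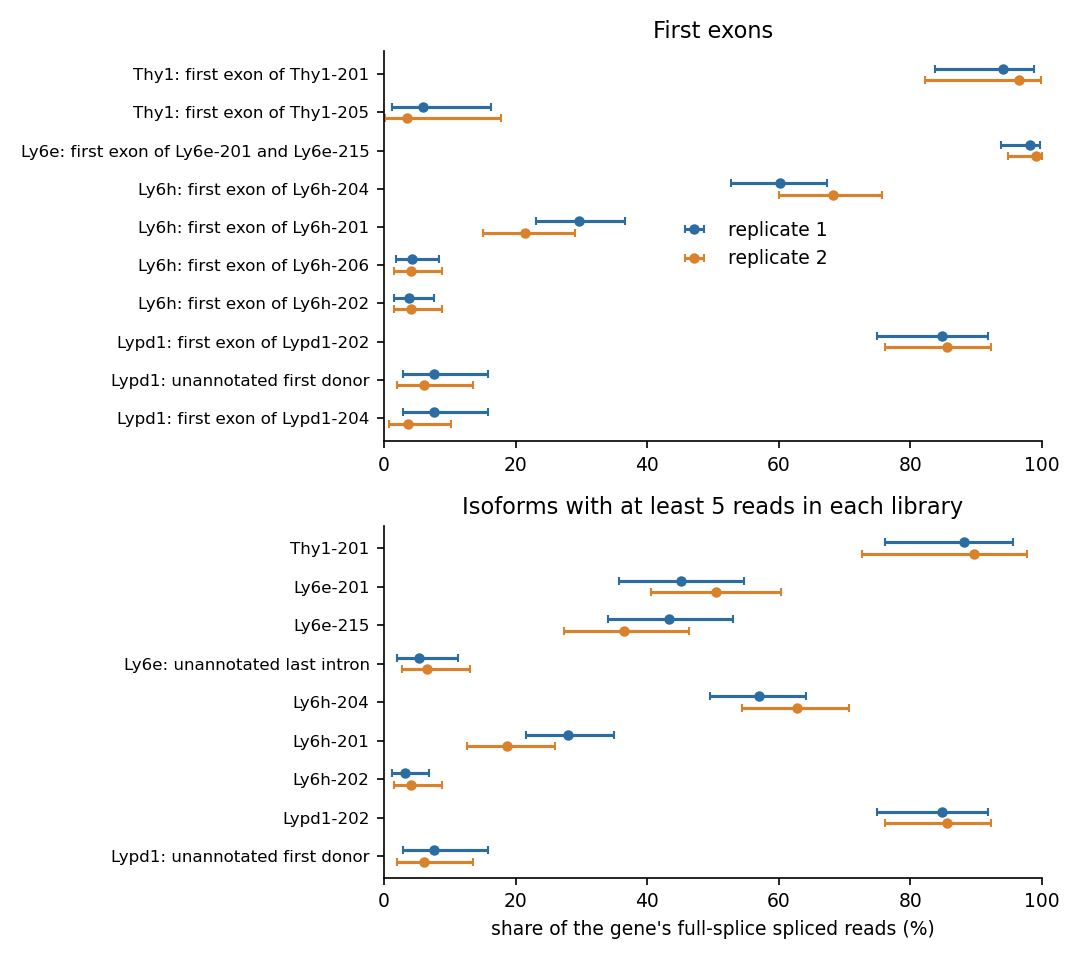
Shares of first exons (top) and of isoforms (bottom) among the spliced full-splice reads of each gene (horizontal axis, percent) in replicate 1 and replicate 2, with exact 95% intervals; first donors with fewer than 4 reads together and Lynx1, which has a single form, are left out. Ly6h divides its reads among 4 first exons, Ly6e divides between Ly6e-201 and Ly6e-215, and the bars of both libraries overlap in every case.

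Lynx1, Ly6e and Ly6h lie in a stretch of chromosome 15 that holds much of the family in the mouse (chr15:74747852-75567255, 819 kilobases). The 11 other family genes inside it had few reads: 8 had no read, and Ly6c1, Ly6a and Ly6k had 25 reads in replicate 1 and 15 in replicate 2 together, while each of the 3 members had at least 119 reads in each library. Slurp2, which lies next to Lynx1, also had no read in either library. The 3 members were chosen with earlier results of these data known, so their contrast with the other family genes may follow from that choice. Outside the stretch, Thy1 lies on chromosome 9 (chr9:44043384-44048579, plus strand) and Lypd1 on chromosome 1 (chr1:125867622-125913101, minus strand). Antisense reads were few at all 5 genes, with 1 read in each library at Thy1, 2 at Ly6h in replicate 1 and 1 at Lynx1 in replicate 2, and no read of another annotated gene overlapped a member's span.

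Among the other Ly6/uPAR genes, low levels were the rule. Of 39 annotated, 28 had no read in either library, 7 had a read in both, and the highest was Ly6c1, a marker of brain endothelium, at 17.1 ± 1.45 CPM (n = 2), or 20.3 per kilobase. Lypd6, which enhances Wnt signalling, stood at 10.8 ± 0.111 CPM, Ly6a, the stem cell antigen Sca-1, at 7.39 ± 6.66 CPM, and Cd59a, a complement inhibitor, at 5.64 ± 2.29 CPM. The median of the list was 0 CPM, and only 1 of its genes had enough reads for the test between libraries, which it did not pass. Over all reads, the lowest of the 5 members, Lypd1, was above the highest of this list in CPM. In CPM per kilobase Lypd1 at 16.8 was below Ly6c1 at 20.3. The members and this list were chosen with earlier results of these data known, so the gap in CPM may follow from that choice. In full-splice reads Lynx1, with 11 and 5, did not stand above Ly6c1, with 10 and 10.

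The subunits of nicotinic receptors, on which Lynx1, Ly6h and Lypd1 act, had lower levels than these 3 genes in CPM over all reads. For Lynx1 the direction turned in full-splice reads, of which it had 11 and 5, Chrnb2 25 and 14, and Chrna7 18 and 21. Of 16 nicotinic receptor subunits 9 had no read. Chrnb2, the beta subunit of the main heteromeric brain receptor, stood at 53.0 ± 10.5 CPM (n = 2) or 8.29 per kilobase, and Chrna7, which forms homomeric receptors, at 26.2 ± 4.61 CPM or 12.6 per kilobase. Chrna4, the usual partner of Chrnb2, stood at 8.73 ± 4.76 CPM and Chrna5 at 5.04 ± 1.43 CPM. The subunits summed to 103 and 87.2 CPM. The enzymes that make and attach the GPI anchor were all read: 29 of 29 had reads in each library. Their median was 17.6 CPM, and they were led by Pigs at 125 ± 3.71 CPM and Pigq at 105 ± 8.51 CPM, followed by Pigk at 91.9 ± 10.4 CPM and Pigg at 85.5 ± 27.9 CPM. Only 4 Pigg reads in each library were full-splice, out of 87 in replicate 1 and 49 in replicate 2. Pigs and Pigk belong to the transamidase that attaches the anchor. Of 18 other neuronal surface proteins on the list of GPI-anchored proteins, 17 had reads in each library and the median was 52.2 CPM; the list includes Alcam, which spans the membrane. Prnp, encoding the prion protein, led at 1417 and 1387 CPM (mean 642 per kilobase), above all 5 members on both scales. Gpc1 (247 ± 0.84 CPM), Nrn1 (178 ± 13.9 CPM) and Rtn4rl2 (162 ± 18.8 CPM) followed, within the range of the members. No gene of these 3 lists was called different between libraries, of 2, 18 and 16 with enough reads to test.

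**Figure D5:**
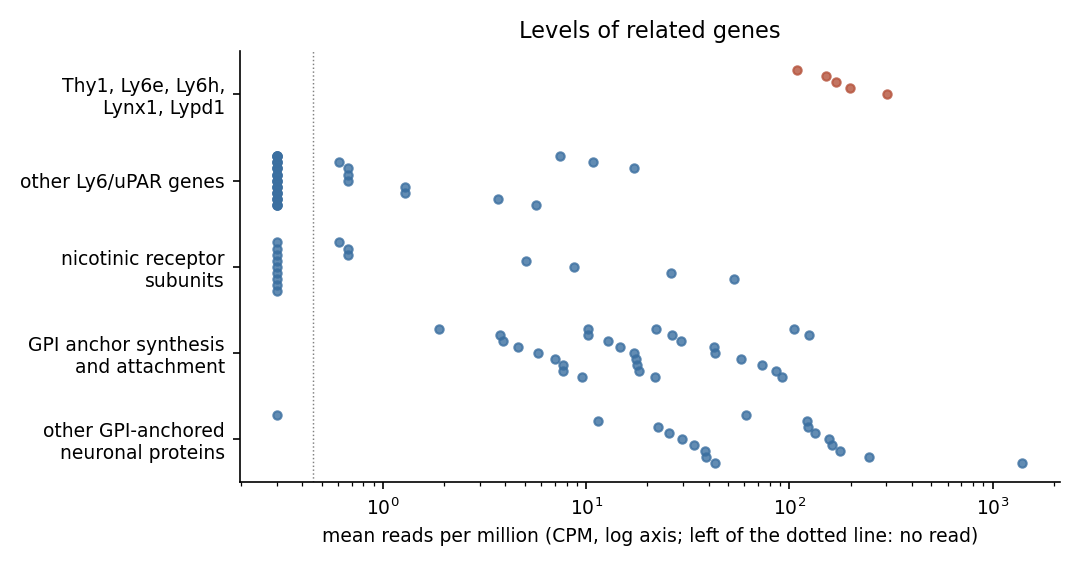
Mean level of every annotated gene on each list (horizontal axis, reads per 1000000 on a log scale; points left of the dotted line had no read), with the 5 genes described here on top in red and the lists below in blue; the vertical scatter within a row has no meaning. Over all reads the 5 genes lie between 108 and 302 CPM, and no other Ly6/uPAR gene is above 17.1 CPM; Lynx1 stands at 13.2 CPM without Genomic models.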

How the data were processed

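Per the deposited text files, the authors derived read counts for each transcript model, as whole numbers, from alignments to mm10 with GENCODE M21, library by library. Per attributes in the deposited structures, TALON made the unannotated models. For aligner, platform and versions: not given in the sources used here. Other deposited values are the exon number, length and positions of each model. The README text files were used only for this.

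Counts were summed per gene over models given to annotated genes. Levels are CPM over 826596 and 745492 reads not on spike-ins. Models under 50 bases held 1.23% and 1.08% of these reads, so model ends are imprecise. Isoforms were joined between libraries by their introns. Intervals are exact 95% Clopper-Pearson intervals. No molecular identifiers were described, and intervals and limits include only counting error. Genes with at least 20 reads together were tested with two-sided exact binomial tests and shares with at least 20 reads in each library with two-sided Fisher's exact tests, adjusted by Benjamini-Hochberg over all genes tested, and the tests were checked on simulated data. The fold limit adds 0.5 to each count. The handling of near-identical genes is not stated, so Ly6a and Ly6c1 are uncertain. Strand was taken from the models.

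The members and lists were chosen with earlier results of these data known. Named genes are the 5 members, up to 4 leading genes per related list, the 3 genes nearest to each member by class shares (1 or 3 of these are given), and isoforms with at least 5 reads in each library; Ly6k, Slurp2, Alcam, marker genes and rarer forms were added after their values were seen. The motifs were also chosen then. Sequences came from GENCODE M21 and RefSeq (GRCm38.p6). Alternatives changed the classes counted, scaling, minimum and fold. Python 3.11.15, pandas 2.3.3, numpy 2.4.6, scipy 1.17.1, R 4.3.3 and edgeR 4.0.16 (TMM factors 0.998 and 1.002) were used.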

Additional observations from a re-analysis of the deposited data

How the results depend on the processing

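Levels. Without Genomic models, Thy1 stood at 118 CPM (73.3 and 162 CPM in replicates 1 and 2) and Lynx1 at 13.2 CPM. For Thy1 this drops last-exon reads in replicate 1 only. With full-splice models only, Thy1 stood at 77.8, Ly6e at 218, Lynx1 at 15.3 and Lypd1 at 158 CPM, so Lynx1 fell from the third to the last place in both settings; CPM is then taken over the classes kept. Per kilobase of mean model length the values were 111 for Thy1, 126 for Ly6e, 257 for Ly6h, 353 for Lynx1 and 19.2 for Lypd1, where the 1-base model shortens the mean length of Lynx1. Per kilobase of the leading transcript, a setting chosen after seeing the data, they were 86.8, 86.9, 226, 42.2 and 16.8.

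Tests. Genes that differed between libraries numbered 28, rising to 52 with no fold limit and 59 when Genomic models were dropped, and falling to 14 over full-splice models. Thy1 was called only without Genomic models, the setting that drops its last-exon reads in replicate 1 but not in replicate 2. Genes whose Genomic share differed fell from 301 to 7 when single-exon reads of any class were counted, a setting also chosen after seeing the data. Genes whose leading first donor differed numbered 6, with 0 over annotated models and 11 over all spliced reads, and genes whose leading isoform differed numbered 9, with 0 over annotated models and 5 with incomplete matches. No member was called in these alternatives for single-exon, first-donor or isoform shares.

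Shares. Over annotated models the leading first exon took 100% in Thy1 and 91.4% in Lypd1, and over all spliced reads 81.8% in Ly6e, 49.2% in Ly6h and 81.5% in Lynx1. The leading isoform took 100% in Thy1, 53.0% in Ly6e, 66.7% in Ly6h and 91.4% in Lypd1 over annotated models, and 78.1% in Thy1, 39.0% in Ly6e, 45.7% in Ly6h and 81.5% in Lynx1 with incomplete matches; the denominators change by construction.

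In the other 86 settings, each value moved by less than 1 SD or each count by at most 1.5 times. Leaving out a replicate leaves the other library's value, which with 2 libraries always lies within 1 SD of their mean: the Genomic share was 0% to 56.7% in Thy1 and 0% to 11.1% in Ly6e. No paired analysis was possible because the series has 1 group. Depth limits Lynx1 most, with 11 and 5 spliced full-splice reads.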
